A study of Drosophila melanogaster with 9 samples.

Results

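The transcriptome of S2R+ cells treated with the second dsRNA against Hrb98DE (KD2) was compared with that of cells treated with a control dsRNA against lacZ, a bacterial gene absent from flies. The comparison took its libraries from the titles, KD2 replicates 1, 2 and 4 against lacZ replicates 1, 2 and 3, and so used 6 of the 9 libraries of the series. Of 17559 gene identifiers counted, the 7426 genes with a mean above 1 CPM (assigned reads scaled to library size) over these 6 libraries were tested. Both groups were the same Oregon R line, S2R+, which adheres to its dish and was established from late embryos. Both received dsRNA by serum starvation for 6 h, with repeated treatment, were kept at 25 °C and were harvested on day 5. Polyadenylated RNA entered stranded libraries, which were made from 500 ng with 11 PCR cycles. The remaining 3 libraries carry the first dsRNA against Hrb98DE (KD1). They enter only 1 direct comparison and an alternative fit of all 9 libraries. The methods name 4 biological replicates for each dsRNA, whereas a supplementary legend names 3 and the series holds 3 libraries per group. The model is 1 cell line with a reduced, not absent, transcript, and although the methods call the replicates biological, no source says that they were separate cultures, so p-values measure the spread between these libraries, which may be in part technical.

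Hrb98DE and its close relative Hrb87F are the fly counterparts of the mammalian hnRNP A/B proteins. Such proteins coat nascent transcripts in the nucleus, influence the choice of splice sites and accompany many mRNAs to the cytoplasm. Reads were counted per gene and sum over isoforms, so an altered isoform choice with an unaltered total is invisible here. In bulk RNA, fewer cells that express a gene and less of its RNA per cell cannot be told apart.

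The 6 libraries held 14483901 to 15931035 assigned reads in KD2 and 13040608 to 15655656 in lacZ. Replicates of a group differed by more than counting noise, with a chi-square per degree of freedom of 4.07 to 12.8, the highest for lacZ replicates 1 and 2. Mitochondrial ribosomal RNA took 1.07 to 1.54% of reads in KD2 and 0.961 to 1.71% in lacZ. The line carried hemocyte markers, 9 of 10 of which passed the filter on low counts, with a summed level of 883 to 902 CPM in KD2 and 818 to 868 CPM in lacZ. Markers of gut and trachea summed to at most 0.414 CPM in KD2 and 0.447 CPM in lacZ, those of fat body to 1.65 to 2.57 CPM in KD2 and 2.53 to 3.39 CPM in lacZ, and those of neurons to 26.2 to 27.4 CPM in KD2 and 26.7 to 29.1 CPM in lacZ. Most of the neuron sum was elav, at 24.3 to 26.2 CPM in KD2 and 24.8 to 27.3 CPM in lacZ. Muscle markers summed to 118 to 120 CPM in KD2 and 103 to 110 CPM in lacZ, and 1 of 3 above the filter rose. Most of this sum was Mef2, at 113 to 114 CPM in KD2 and 96.5 to 103 CPM in lacZ. Germ line markers, 5 of 5 above the filter with vas and nos not matched, summed to 212 to 225 CPM in KD2 and 203 to 218 CPM in lacZ, and none rose or fell. Most of the germ line sum was aub, at 184 to 194 CPM in KD2 and 178 to 190 CPM in lacZ. VGlut, Act88F, betaTry and alphaTry had no read in any of these libraries.

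Hrb98DE (FBgn0001215, 3R:28599834-28605777 in BDGP6, plus strand), the gene targeted, had 1109, 985 and 1115 normalised reads in KD2, against 6717, 7058 and 6852 in lacZ. The groups were far apart, and KD2 libraries kept 15.6% ± 1.07 of the lacZ mean (SD, n = 3). The log2 fold change was -2.68 ± 0.07 (SE), with a Wald statistic of -40.8. Hrb87F (FBgn0004237, 3R:13656846-13660531, minus strand) was strongly lost as well. It had 1576, 1213 and 1491 normalised reads in KD2, against 5977, 6264 and 6078 in lacZ. No KD2 library came near the lowest lacZ library, and 23.4% ± 3.11 of the lacZ mean was left (SD, n = 3). The log2 fold change of Hrb87F was -2.10 ± 0.08 (SE), with an adjusted p of 7.8e-146 by DESeq2. These cells had low levels of both transcripts, and the parts of the losses in the changes below cannot be told apart.

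Below, a gene "rose" or "fell" at a DESeq2 adjusted p under 0.05, and it was past the threshold if its fold change also exceeded 1.3. By this rule 676 genes rose and 773 fell, or 9.1% and 10.4% of the 7426 genes tested and 19.5% together. Counts in the gene lists below are to be read beside these shares. Past the threshold were 199 genes that rose (2.68%) and 375 that fell (5.05%), 7.73% in all. Changes of more than 2-fold were few, with 33 genes that rose and 85 that fell. The other 875 genes moved by less than 1.3-fold, 477 up and 398 down, and the median log2 fold change over all genes tested was 0.00494. All KD2 libraries lay above all lacZ libraries for 1404 of the 7426 genes tested (18.9%), and below them for 1443 (19.4%). A lack of overlap between the groups was thus common. The count of 1449 genes depended on 4 of the libraries. It was 835 without KD2 replicate 1, 789 without KD2 replicate 4, 777 without lacZ replicate 1 and 793 without lacZ replicate 3, but 1509 without KD2 replicate 2 and 1534 without lacZ replicate 2.

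**Figure D1:**
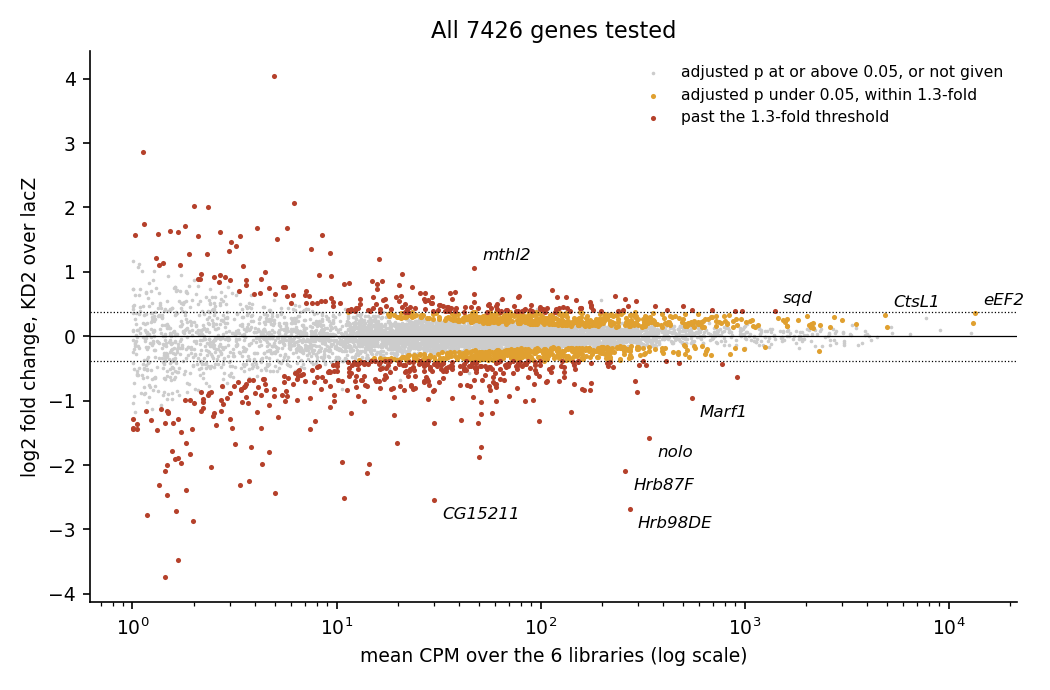
Log2 fold change of KD2 over lacZ (vertical axis) against the mean CPM over the 6 libraries (horizontal axis, log scale) for the 7426 genes tested, with dotted lines at 1.3-fold. Hrb98DE (-2.68) and Hrb87F (-2.10) lie far below the genes of like abundance, and genes above 1000 CPM that passed the test are mostly small rises.

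Among 15 hnRNP genes tested, 2 rose and 5 fell, and the median log2 fold change was -0.05. Apart from Hrb98DE and Hrb87F, the genes past the threshold were nonA, HnRNP-K and squid (sqd). The sqd gene, whose protein localises and splices mRNAs, had 24490, 23039 and 22848 normalised reads in KD2, against 17166, 19092 and 17470 in lacZ. All KD2 libraries were above all lacZ libraries (log2 fold change 0.39 ± 0.06, adjusted p = 3.89e-09). HnRNP-K, a KH-domain protein, had 1946, 1993 and 1903 in KD2, against 2405, 2567 and 2644 in lacZ. The groups did not overlap (log2 fold change -0.38 ± 0.06, adjusted p = 1.6e-07). The nonA gene, which encodes a relative of the paraspeckle protein NONO, was also lower in each KD2 library, at 1625, 2084 and 1696 in KD2, against 2666, 2239 and 2488 in lacZ (log2 fold change -0.45 ± 0.09). Of members chosen after their values were seen, pasilla (ps), a NOVA-type splicing regulator, rose by 0.26 ± 0.06 on the log2 scale, and mub, a poly(C)-binding protein, fell by 0.28 ± 0.07. Hrb27C, an abundant hnRNP, measured 0.10 ± 0.06 and did not pass (adjusted p = 0.221).

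**Figure D2:**
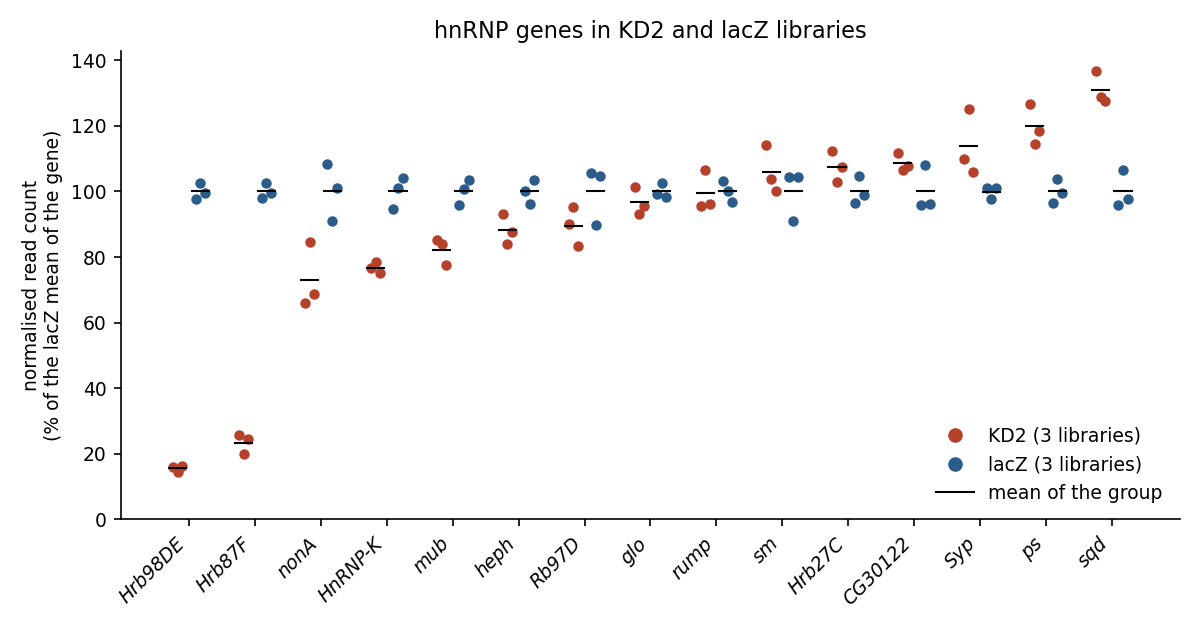
Normalised read count of 15 hnRNP genes in each library, as a percentage of the gene's lacZ mean, with KD2 libraries left of lacZ libraries and the group mean as a line. Hrb98DE and Hrb87F stand at 15.6% and 23.4%, and the other 13 genes lie much closer to 100%.

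Of other parts of the splicing apparatus, the SR list changed about as often as all genes tested and the core spliceosome less often. Of 14 genes for SR proteins, related factors and their kinases, 1 rose and 2 fell, together 21.4%, against 19.5% of all genes tested. Doa, a kinase of SR proteins, fell by 0.28 ± 0.06, and SC35 rose by 0.20 ± 0.06 on the log2 scale but did not pass without KD2 replicate 4 or lacZ replicate 3. In the core spliceosome 1 of 21 genes rose, SmD3 at 0.39 ± 0.08, and 1 fell, snRNP-U1-70K at -0.31 ± 0.07, together 9.52%. In that list 2 rose without KD2 replicate 2 and 3 without lacZ replicate 2. None of 12 genes of nonsense-mediated decay and the exon junction complex passed the test by DESeq2 or edgeR, 0 had an unadjusted p under 0.05, and their log2 fold changes reached from -0.0686 to 0.128.

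Most nucleolar genes tested rose. Of 24 genes for nucleolar proteins and ribosome assembly factors, 16 rose, 9 of them past the threshold, and none fell, with a median log2 fold change of 0.356 and 23 of 24 values above 0. The share that rose was 66.7%, against 9.1% of all genes tested. This and the other gene lists were chosen with earlier results of these data known, so such counts only describe the members. Tsr1, a maturation factor of the small ribosomal subunit, had 2466, 2225 and 2415 normalised reads in KD2, against 1425, 1762 and 1492 in lacZ. Its groups did not overlap, and the log2 fold change was 0.60 ± 0.08 (adjusted p = 1.67e-11). Of the core proteins of the box C/D particles, which guide methylation of ribosomal RNA, the 3 in this list rose. Fibrillarin (Fib), the methyltransferase, had 3189, 2678 and 3253 in KD2, against 2015, 2510 and 1976 in lacZ (log2 fold change 0.49 ± 0.09, adjusted p = 4.87e-06). Its partner nop5 had 3244, 2644 and 3215 in KD2, against 1973, 2348 and 1968 in lacZ (0.53 ± 0.09, adjusted p = 7.4e-08). Nop56 had 9747, 9262 and 9921 in KD2, against 7209, 8357 and 7314 in lacZ (0.34 ± 0.07, adjusted p = 9.55e-06). For all 3 genes the KD2 libraries lay above the lacZ libraries, with KD2 replicate 2 the lowest and lacZ replicate 2 the highest of their groups. Nopp140, a scaffold of snoRNA particles, reached 0.41 ± 0.06, and Nnp-1 reached 0.45 ± 0.07 on the log2 scale.

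As a share of assigned reads, the nucleolar list took 0.581, 0.529 and 0.566% in KD2, against 0.45, 0.504 and 0.464% in lacZ. The groups did not overlap, but the gap between KD2 replicate 2 and lacZ replicate 2 was narrow. Leaving out a library changed the number of members that rose to between 13 and 20. Non1, a GTPase of large subunit assembly, measured 0.02 ± 0.06 (adjusted p = 0.835).

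Ribosomal protein genes rose about as often as all genes tested, of which 9.1% rose. Of 77 cytosolic ribosomal protein genes 8 rose and 2 fell, at a median log2 fold change of 0.0365. RpS27 rose by 0.28 ± 0.05 on the log2 scale, whereas RpL32, often used as a reference gene, had 29545, 30980 and 33015 normalised reads in KD2, against 36911, 37032 and 35864 in lacZ. RpL32 was lower in all KD2 libraries (log2 fold change -0.23 ± 0.06, adjusted p = 0.000591). The number that rose was 5 without KD2 replicate 1, 2 without KD2 replicate 4, lacZ replicate 1 or lacZ replicate 3 and 12 without lacZ replicate 2, and 4 fell without KD2 replicate 2 or lacZ replicate 3. Copies such as RpS19b and RpS14b have a near-identical partner, and their values depend on how shared reads were assigned. Of 70 mitochondrial ribosomal protein genes, 6 rose and none fell, with a median of 0.0294. Without KD2 replicate 4 or either of lacZ replicates 1 and 3 none of these 6 passed, and without KD2 replicate 1 or lacZ replicate 2 the numbers were 2 and 3.

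Of 43 translation factor genes 11 rose and 1 fell, with a median log2 fold change of 0.0712. eEF2, the translocase of elongation, had 234798, 206050 and 226937 normalised reads in KD2, against 158836, 195391 and 166841 in lacZ. The groups did not overlap, at 1.28-fold (log2 0.36 ± 0.08, adjusted p = 5e-05), although KD2 replicate 2 and lacZ replicate 2 lay close. eIF2alpha, a subunit of the factor that brings the initiator tRNA, had 8190, 7604 and 8370 in KD2, against 6576, 6963 and 6436 in lacZ (0.27 ± 0.06, adjusted p = 9.94e-05). eIF4E1, which binds the cap, rose by 0.22 ± 0.06 and eIF4G1, the scaffold, by 0.27 ± 0.08. The number of translation factors that rose was 3 without KD2 replicate 1, lacZ replicate 1 or lacZ replicate 3, and 4 without KD2 replicate 4. The number that fell was 3 without KD2 replicate 2 and 0 without KD2 replicate 1, KD2 replicate 4, lacZ replicate 1 or lacZ replicate 3. As a share of assigned reads the list took 3.66, 3.48 and 3.63% in KD2, against 3.09, 3.39 and 3.18% in lacZ.

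Of 33 aminoacyl-tRNA synthetase genes, the enzymes that load tRNAs, 8 rose and 1 fell, and 29 values were above 0 (median log2 fold change 0.134). ThrRS had 5645, 5507 and 5479 normalised reads in KD2, against 4282, 4819 and 4414 in lacZ (0.30 ± 0.06, adjusted p = 2.46e-05). AlaRS had 9379, 9317 and 9290 in KD2, against 7693, 8372 and 7836 in lacZ (0.23 ± 0.06, adjusted p = 0.000555). Both were higher in every KD2 library. The exception, mitochondrial MetRS-m, fell by 0.77 ± 0.17 on the log2 scale. The number of synthetases that rose was 3 without KD2 replicate 1, 2 without KD2 replicate 4, lacZ replicate 1 or lacZ replicate 3, and 13 without lacZ replicate 2.

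The proteasome, the protease of ubiquitin-tagged proteins, went the opposite way. Of 33 genes tested 20 fell and none rose, with a median log2 fold change of -0.18 and 32 of 33 values below 0. Only Rpt6R, a variant of the base ATPase Rpt6, was past the threshold, with 687, 591 and 670 normalised reads in KD2, against 1098, 1116 and 1053 in lacZ (log2 fold change -0.75 ± 0.08, adjusted p = 5.04e-17). Rpt6 itself had 6624, 6933 and 6709 in KD2, against 8427, 8139 and 7973 in lacZ (-0.28 ± 0.05, adjusted p = 9.57e-06). Prosbeta7, a subunit of the catalytic core, had 2690, 2622 and 2827 in KD2, against 3481, 3569 and 3234 in lacZ (-0.34 ± 0.06, adjusted p = 4.32e-06). All KD2 libraries were below all lacZ libraries for these 3 genes. Prosalpha7 of the outer ring of the core fell by 0.27 ± 0.07 and the ATPase Rpt3 by 0.22 ± 0.06, whereas Rpn2, a scaffold of the base, measured 0.01 ± 0.08 (adjusted p = 0.936).

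The proteasome list took 0.758, 0.718 and 0.755% of assigned reads in KD2, against 0.847, 0.883 and 0.834% in lacZ, with no overlap. The number that fell was 7 without lacZ replicate 1, 10 without KD2 replicate 1, 11 without KD2 replicate 4 or lacZ replicate 2, and 12 and 13 without lacZ replicate 3 and KD2 replicate 2. With a correction for exon length per library it was 11, at a median of -0.148. Members of this list are short, with a median annotated exon length of 1404 bases, and the per-library slope of log2 ratio on exon length reached from -0.0131 to 0.0267 per doubling in KD2 and from -0.0178 to 0.0125 in lacZ.

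**Figure D3:**
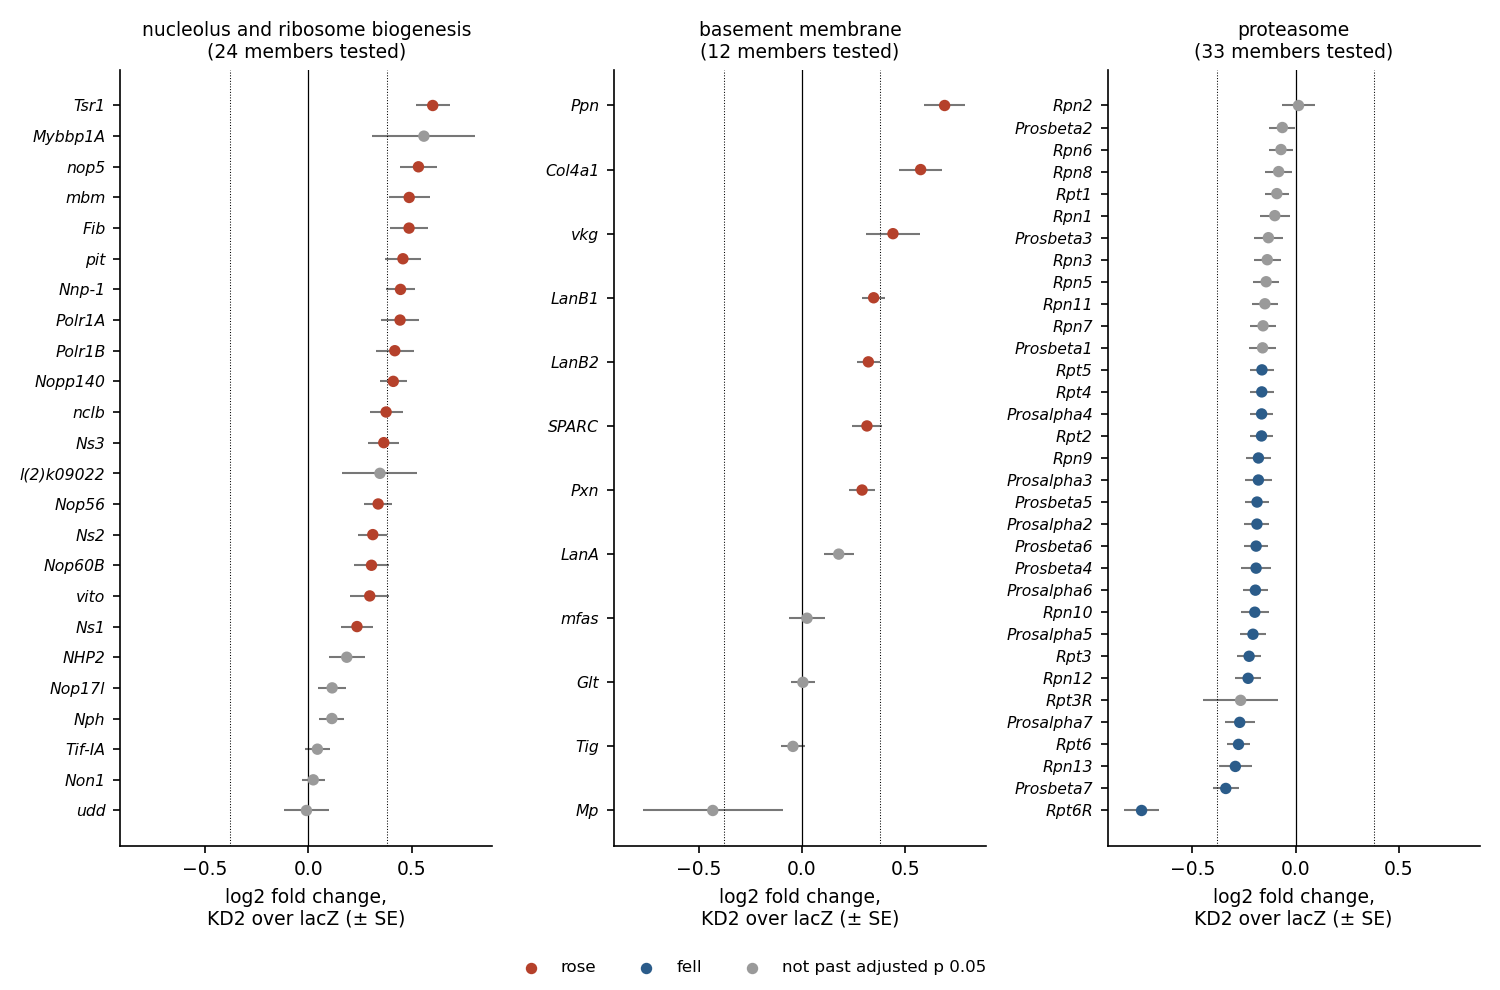
Log2 fold change of KD2 over lacZ with its standard error for each tested member of 3 gene lists, with dotted lines at 1.3-fold. Of the nucleolar genes 16 of 24 rose, of the basement membrane genes 7 of 12 rose, and of the proteasome genes 20 of 33 fell.

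**Figure D4:**
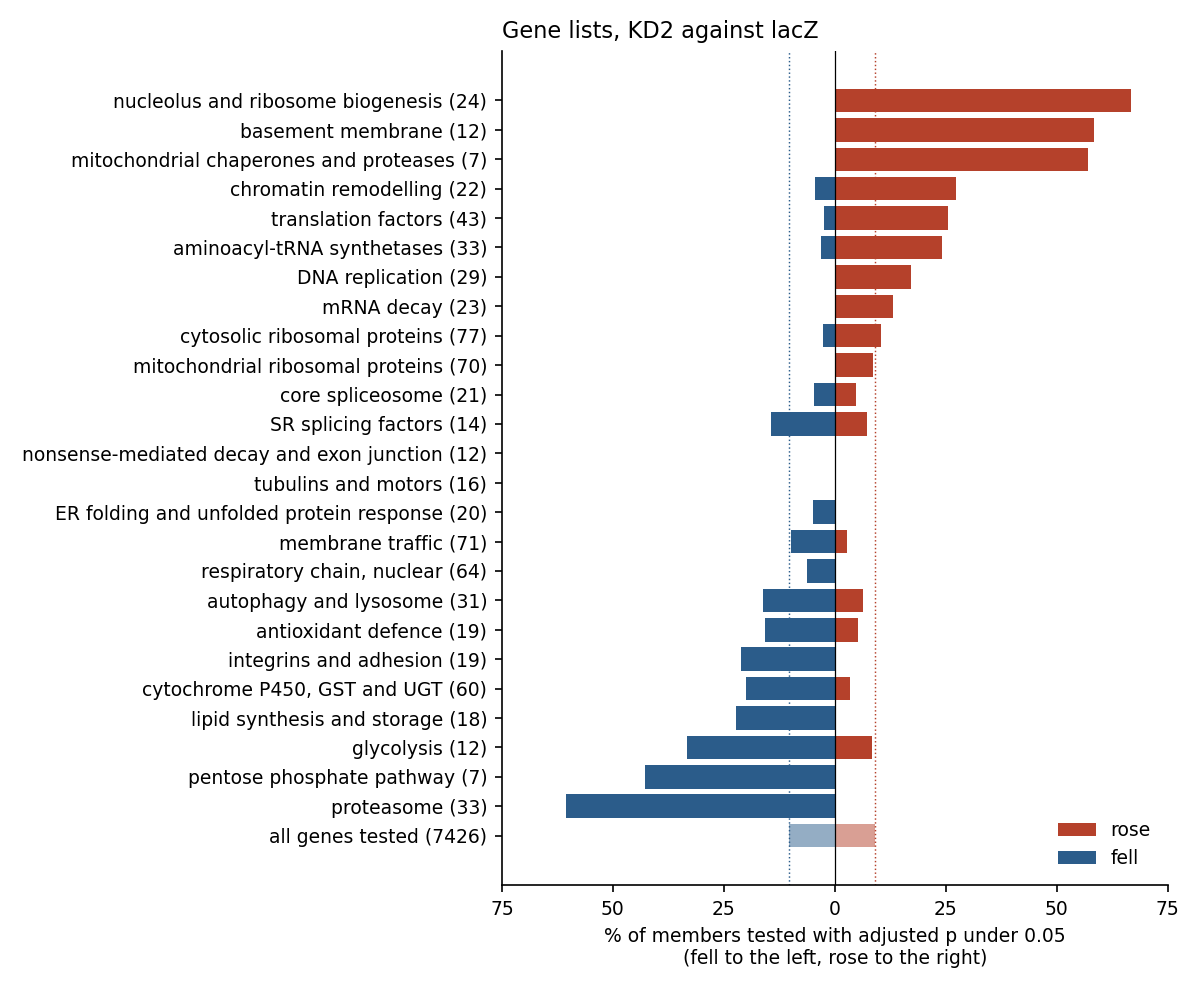
Share of tested members (horizontal axis, %) with an adjusted p under 0.05 that fell (bars to the left) or rose (bars to the right) in KD2 against lacZ, for 25 gene lists with the number of members tested in parentheses and dotted lines at the shares over all genes (10.4% and 9.1%). The nucleolar list stands at 66.7% risen and the proteasome list at 60.6% fallen. The lists were chosen with earlier results of these data known.

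Basement membrane genes rose as well. The basement membrane is the sheet of laminin and collagen IV that hemocytes secrete in the fly embryo, and 7 of 12 of its genes tested rose, 3 past the threshold, and none fell (median log2 fold change 0.303). The gene trol was not matched to an identifier and is not among them. Of its members Col4a1, vkg and Pxn are also among the hemocyte markers used here. LanB1 and LanB2, the beta and gamma chains of laminin, changed by nearly the same amount. LanB1 had 8650, 8446 and 8163 normalised reads in KD2, against 6421, 6878 and 6557 in lacZ (0.35 ± 0.06, adjusted p = 2.97e-08). LanB2 had 11739, 12171 and 11379 in KD2, against 9032, 9817 and 9391 in lacZ (0.32 ± 0.06, adjusted p = 5.97e-07). The alpha chain, LanA, measured 0.18 ± 0.07 with overlapping groups and did not pass (adjusted p = 0.0625). Collagen IV was represented by Col4a1, at 453, 490 and 465 in KD2 against 310, 301 and 336 in lacZ (0.57 ± 0.10), and papilin (Ppn) rose by 0.69 ± 0.10. SPARC, a collagen-binding glycoprotein, had 29514, 35154 and 33962 in KD2, against 28218, 24407 and 26682 in lacZ (0.31 ± 0.07, adjusted p = 0.000269). The groups of SPARC came close at KD2 replicate 1 and lacZ replicate 1. The list took 0.878, 0.896 and 0.858% of reads in KD2, against 0.773, 0.79 and 0.769% in lacZ, and leaving out a library left 6 to 8 members that rose.

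**Figure D5:**
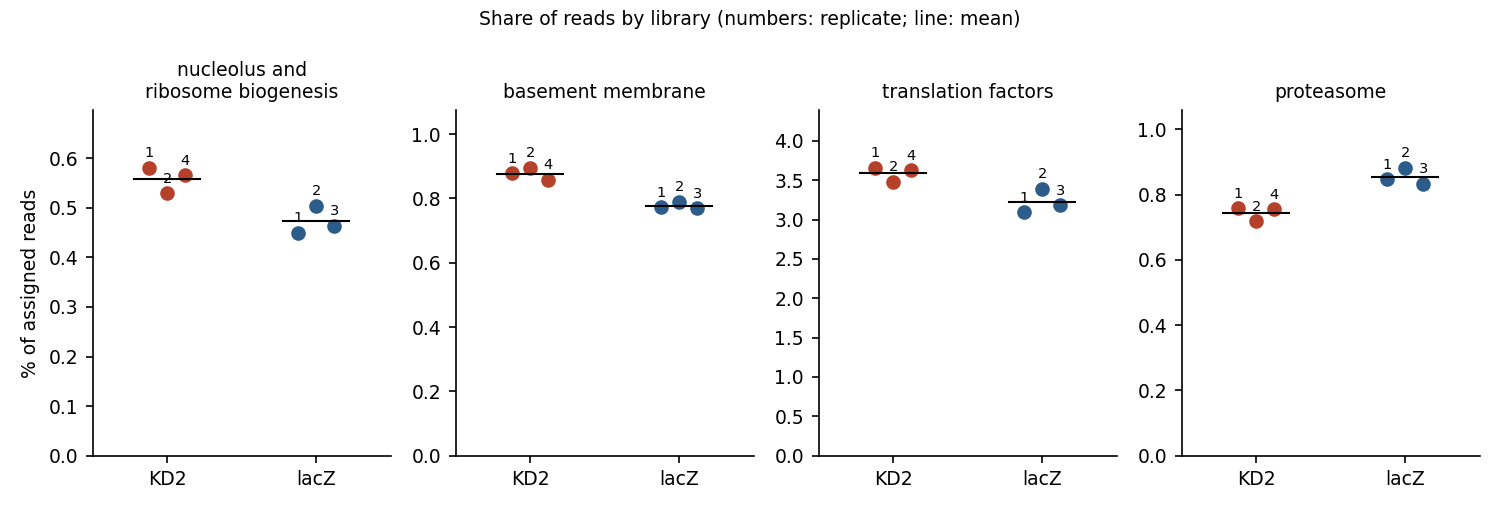
Share of assigned reads taken by 4 gene lists in each library, with KD2 left of lacZ, replicate numbers above the points and the group mean as a line. The KD2 libraries lie above the lacZ libraries for the nucleolus, the basement membrane and translation factors, and below them for the proteasome, at 0.718 to 0.758% against 0.834 to 0.883%.

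Hemocyte genes did not move together. Of 13 receptors and markers of blood cells tested, 3 rose and 1 fell (median log2 fold change -0.00659), with 5 rises without KD2 replicate 2 and 2 falls without KD2 replicate 2 or lacZ replicate 2. In the shorter set of 9 defining hemocyte markers above the filter, which includes collagen IV and Pxn, 5 rose, and the part of this in the other results was not tested. Hemolectin (Hml), a clotting protein, had 328, 271 and 274 normalised reads in KD2, against 157, 191 and 176 in lacZ (0.74 ± 0.13, adjusted p = 1.72e-06). The scavenger receptor Sr-CI had 1480, 1334 and 1401 in KD2, against 830, 909 and 982 in lacZ (0.63 ± 0.08, adjusted p = 5.59e-13). Tep2 and Tep4, complement-like thioester proteins, went in opposite directions. Tep2 had 1926, 1651 and 1784 in KD2, against 2404, 2644 and 2540 in lacZ (-0.50 ± 0.07), and Tep4 reached 0.31 ± 0.07. The phagocytic receptor crq and the GATA factor srp, which specifies blood cells, measured -0.15 ± 0.06 and 0.12 ± 0.06 and did not pass the test.

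Lists of energy metabolism differed. Of the glycolytic and pentose phosphate genes tested 41.7% and 42.9% rose or fell, against 19.5% of all genes, and of the nuclear respiratory chain genes 6.25%. Of 12 glycolytic genes 4 fell and 1 rose (median log2 fold change -0.145). Triose phosphate isomerase (Tpi) had 1156, 1489 and 1341 normalised reads in KD2, against 1841, 1624 and 1712 in lacZ (-0.38 ± 0.09, adjusted p = 0.000284). Phosphoglycerate mutase (Pglym78) fell by 0.34 ± 0.07 and Gapdh1 by 0.19 ± 0.06. Aldolase (Ald1), which makes the substrate of Tpi, had 4784, 5537 and 4979 in KD2, against 3644, 3274 and 3535 in lacZ (0.55 ± 0.07, adjusted p = 3.83e-13). In this pathway the only rise past the threshold was that of Ald1, with no overlap between the groups. The number of glycolytic genes that rose was 3 without lacZ replicate 2, and the number that fell was 2 without KD2 replicate 1 or lacZ replicate 1 and 7 without KD2 replicate 2.

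In the pentose phosphate pathway, which supplies NADPH and ribose, 3 of 7 genes fell (Taldo, Zw and Rpi, by 0.24 ± 0.06, 0.28 ± 0.09 and 0.24 ± 0.08) and none rose. In this list 1 gene fell without KD2 replicate 1, KD2 replicate 4, lacZ replicate 1 or lacZ replicate 3. Of 64 nuclear respiratory chain genes 4 fell and none rose, with 49 values below 0 and a median of -0.0552. None fell without KD2 replicate 1 or lacZ replicate 1, 1 without KD2 replicate 4 and 2 without lacZ replicate 3, and the exon length correction left 2 that fell and 2 that rose. Of 13 respiratory chain genes encoded in mitochondria 2 fell, both past the threshold, and none rose. In that list 1 fell without KD2 replicate 2, KD2 replicate 4, lacZ replicate 2 or lacZ replicate 3, and 2 rose without lacZ replicate 1. Acetyl-CoA synthetase (AcCoAS) had 665, 751 and 720 normalised reads in KD2, against 1204, 1014 and 1174 in lacZ (-0.67 ± 0.09, adjusted p = 3.03e-12), and among 18 genes of lipid synthesis and storage 4 fell and none rose, with 2 falls without KD2 replicate 1 or lacZ replicate 3 and 7 without lacZ replicate 2. S-adenosylmethionine synthetase (Sam-S), the source of methyl groups, had 9263, 7697 and 8765 in KD2, against 5860, 6571 and 6056 in lacZ (0.48 ± 0.07, adjusted p = 4.07e-09). In mitochondria, 4 of 7 chaperone and protease genes rose, among them Hsc70-5 (0.19 ± 0.06) and Lon (0.26 ± 0.08), but only 1 passed without KD2 replicate 1, KD2 replicate 4 or lacZ replicate 3 and none without lacZ replicate 1.

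Among detoxification enzymes more genes fell than rose. Of 60 cytochrome P450, glutathione transferase and UDP-glycosyltransferase genes 12 fell and 2 rose (median log2 fold change -0.0715). Together these were 23.3% of the list, against 19.5% of all genes tested, of which 10.4% fell and 9.1% rose. GstT4, a theta-class glutathione transferase, had 386, 507 and 451 normalised reads in KD2, against 1200, 828 and 1073 in lacZ (-1.21 ± 0.12, adjusted p = 1.14e-20). Cyp6a20 fell by 0.50 ± 0.10 and GstE12 by 0.46 ± 0.10, whereas GstD9 had 320, 261 and 332 in KD2, against 213, 202 and 196 in lacZ (0.58 ± 0.13). The GstD and GstE genes are clustered copies, so their values depend on the assignment of shared reads. The number that fell was 5 without lacZ replicate 1, 7 without KD2 replicate 4 or lacZ replicate 3 and 8 without KD2 replicate 1, and the number that rose was 1 without each of these 4 libraries.

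Cell surface and adhesion genes held several of the larger single changes. Dscam1, an immunoglobulin receptor with very many isoforms, had 3428, 3200 and 3117 normalised reads in KD2, against 5310, 5316 and 5119 in lacZ (-0.69 ± 0.06, adjusted p = 3.03e-28). Slit (sli), the secreted ligand of Robo receptors, had 4280, 3965 and 4093 in KD2, against 2763, 2546 and 2714 in lacZ (0.62 ± 0.06, adjusted p = 4.43e-21). Fit1, the kindlin that activates integrins, had 566, 643 and 571 in KD2, against 1038, 1060 and 1064 in lacZ (-0.83 ± 0.08, adjusted p = 2.06e-21). Within each of these 3 genes the libraries of a group lay close together and the groups were widely separated. Of 19 integrin and adhesion genes 4 fell and none rose, with 2 falls without KD2 replicate 1, KD2 replicate 4, lacZ replicate 1 or lacZ replicate 3. Of 16 receptors and junction proteins of guidance and motility 2 rose and 3 fell, all past the threshold. Marf1, an RNA-binding protein chosen after its values were seen, had 6042, 5038 and 5263 in KD2, against 10060, 11200 and 10604 in lacZ (-0.96 ± 0.07, adjusted p = 5.83e-38).

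Among 22 chromatin remodelling genes 6 rose and 1 fell. The one that fell, Nipped-A, a scaffold of histone acetyltransferase complexes, had 2975, 3553 and 2702 normalised reads in KD2, against 5785, 5768 and 5294 in lacZ (-0.87 ± 0.08, adjusted p = 1.74e-22). The partner ATPases rept and pont rose by 0.32 ± 0.08 and 0.27 ± 0.07 on the log2 scale. The number that rose was 3 without KD2 replicate 1, 2 without lacZ replicate 1, 1 without lacZ replicate 3 and 12 without lacZ replicate 2. Rab6, a Golgi GTPase, had 2154, 2217 and 2249 in KD2, against 2945, 2895 and 2998 in lacZ (-0.42 ± 0.06, adjusted p = 2.28e-10), among 71 membrane traffic genes of which 2 rose and 7 fell. Together these were 12.7% of the list, below the 19.5% of all genes tested. Of the membrane traffic genes, 3 fell without KD2 replicate 1, 1 without KD2 replicate 4 or lacZ replicate 1 and 2 without lacZ replicate 3, and 6 rose without lacZ replicate 2.

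Among genes past the threshold, above 5 CPM and without overlap between groups, Hrb98DE and 11 others fell most. CG15211 had 130, 140 and 114 normalised reads in KD2, against 854, 548 and 838 in lacZ (-2.54 ± 0.15, adjusted p = 3.78e-60). TpnC4, a troponin C of muscle, had 48.33, 41.94 and 52.04 in KD2, against 289, 247 and 272 in lacZ (-2.50 ± 0.18). Bet3, a subunit of the TRAPP tethering complex, had 71.6, 55.2 and 64.3 in KD2, against 231, 259 and 250 in lacZ (-1.95 ± 0.17). The KD2 mean was 17.2%, 17.6% and 25.9% of the lacZ mean for CG15211, TpnC4 and Bet3. A gene of higher CPM was nolo, an ADAMTS-like matrix protein, with 2415, 2609 and 2363 in KD2, against 7681, 6734 and 7753 in lacZ (-1.59 ± 0.07, adjusted p = 8.4e-111). The others were Hrb87F, given above, and CG14275, CG9521, CG34330, MFS17, FBgn0058178, for which the annotation used has no name, and the transglutaminase Tg, the last 6 at log2 fold changes of -2.13 to -1.44. CG9521 and CG34330 varied within KD2, where replicate 2 stood at 147 normalised reads for CG9521 and 479 for CG34330, above the 52.04 and 56.12 and the 212 and 243 of replicates 1 and 4.

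Noncoding and weakly expressed genes led the list of rises under the same rule. The pseudogene CR43727 had 157, 167 and 117 normalised reads in KD2, against 45.84, 29.97 and 29.62 in lacZ (2.06 ± 0.23, adjusted p = 5.53e-17). Next were lncRNA:CR43963 (1.68 ± 0.24), asRNA:CR44029 (1.58 ± 0.22) and lncRNA:CR44809 (1.52 ± 0.23). Counts of pseudogenes and antisense RNAs can hold reads of their parent or partner gene, since the strand setting of the counting is not stated. Among coding genes, Dhc62B, a dynein heavy chain, had 158, 151 and 167 in KD2, against 55.8, 68.4 and 61.4 in lacZ (1.36 ± 0.18, adjusted p = 1.17e-11). The receptor mthl2, a methuselah-like protein, had 951, 1024 and 847 in KD2, against 489, 425 and 444 in lacZ (1.05 ± 0.10, adjusted p = 8.11e-26). Its groups were far apart. CARPB had 189, 217 and 180 in KD2, against 98.7, 63.7 and 75.7 in lacZ. The genes zye, CG33655, CG43245, lawc and Spn42De completed the list, at 0.86 to 1.19, and zye varied, at 436, 193 and 365 in KD2, against 131.5, 176 and 127 in lacZ.

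Of 103 long noncoding RNAs tested 17 rose and 5 fell, 15 and 5 of them past the threshold, with a median log2 fold change of 0.183. The largest change, lncRNA:CR45036, went to 121, 162 and 133 normalised reads in KD2, against 9.97, 8.43 and 6.58 in lacZ (4.04 ± 0.34, adjusted p = 2.47e-29). The one with the highest mean CPM, lncRNA:CR42862, had 9809, 11792 and 9679 in KD2, against 16522, 13707 and 18504 in lacZ (-0.64 ± 0.16). The dosage compensation RNA roX2 fell by 0.47 ± 0.09 on the log2 scale. Uhg1, a host of intronic snoRNAs, had 814, 924 and 797 in KD2, against 544, 552 and 513 in lacZ (0.65 ± 0.09, adjusted p = 2.55e-11). Of 13 snoRNAs above the filter, 5 rose and 1 fell, in libraries selected for polyadenylated RNA, with 2 rises without KD2 replicate 4 and 3 without lacZ replicate 3.

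Changes of less than 1.3-fold were the more frequent kind. Of 2081 genes with a mean of at least 100 CPM, 314 rose (15.1%) and 222 fell (10.7%). By size, 460 of these moved by less than 1.3-fold (278 up and 182 down) and only 36 and 40 were past the threshold. The median standard error was 0.0652 on the log2 scale in this group, against 0.0895 over all genes. Among 177 genes of 500 to 1000 CPM 47 rose and 18 fell, and above 1000 CPM 30 rose and 2 fell out of 147. At 1 to 5 CPM the balance was the other way, with 40 rises and 87 falls among 836 genes, all past the threshold. Without KD2 replicate 1, KD2 replicate 4, lacZ replicate 1 or lacZ replicate 3 the rises above 1000 CPM were 18, 16, 14 or 14 and those of 500 to 1000 CPM 24, 25, 23 or 25. The falls above 1000 CPM were 6 without KD2 replicate 2, 4 without lacZ replicate 2 or 3 and 1 without KD2 replicate 4 or lacZ replicate 1, and those of 500 to 1000 CPM were 12, 10, 11 or 10 without KD2 replicate 1, KD2 replicate 4, lacZ replicate 1 or lacZ replicate 3. With the exon length correction 404 genes of at least 100 CPM rose and 176 fell. Leaving out KD2 replicate 1, KD2 replicate 4, lacZ replicate 1 or lacZ replicate 3 left 178, 172, 163 or 170 that rose and 145, 132, 129 or 137 that fell.

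Of the small rises, that of Ip259 had the smallest adjusted p, with 5711, 5910 and 5898 normalised reads in KD2, against 4522, 4528 and 4593 in lacZ (1.28-fold, log2 0.36 ± 0.05, adjusted p = 1.22e-09). The libraries of each group differed by a few percent and the groups by much more. CtsL1, a lysosomal cathepsin, had 77131, 81293 and 79742 in KD2, against 65212, 59863 and 65329 in lacZ (1.25-fold, adjusted p = 2.73e-07). The poly(A)-binding protein pAbp had 42503, 45753 and 45165 in KD2, against 37082, 34604 and 36179 in lacZ (1.24-fold, adjusted p = 8.68e-07). The kinase misshapen (msn), which acts upstream of JNK, had 13348, 12452 and 13026 in KD2, against 10446, 10614 and 10229 in lacZ (1.24-fold, adjusted p = 2.66e-07). Each of these was higher in all KD2 libraries. CG1910, drongo, Fkbp39, CG32700, LanB1 and LanB2 completed this set at log2 fold changes of 0.32 to 0.38.

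Small falls with the smallest adjusted p included the following genes. Src42A, a Src-family tyrosine kinase, had 3310, 3044 and 3024 normalised reads in KD2, against 3859, 4136 and 4075 in lacZ (-0.36 ± 0.06, adjusted p = 2.95e-07). Lachesin (Lac), an immunoglobulin protein of septate junctions, had 1392, 1334 and 1432 in KD2, against 1795, 1740 and 1798 in lacZ (-0.36 ± 0.07, adjusted p = 2.47e-06). Sulf1, which trims sulfate from heparan sulfate, fell by 0.37 ± 0.07. Glycogen synthase (Glys) had 1996, 2172 and 2037 in KD2, against 2560, 2549 and 2661 in lacZ (-0.32 ± 0.06, adjusted p = 9.3e-06). Its KD2 libraries were all lower, as were those of alt, CG17264, scaf, sowah, CG9674 and Prosbeta7, which fell by 0.32 to 0.36.

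Genes that span long stretches of the genome leaned downwards. Of 171 genes that span more than 50 kb, 47 fell and 13 rose (median log2 fold change -0.0867), and of 392 genes of 20 to 50 kb 84 fell and 44 rose. Of 720 genes with at least 11 exon blocks 144 fell and 65 rose. In genes of 2 to 5 kb the order was the other way, with 250 rises and 213 falls among 2442. Rises and falls together were 35.1%, 32.7%, 29.0% and 19.0% of these groups in the order given. Over all genes tested the share was 19.5%, with 10.4% that fell and 9.1% that rose. The exon length correction gave 39 falls and 22 rises for the genes over 50 kb. Leaving out a library gave 34 to 46 falls, and 8 rises without KD2 replicate 1. For the genes of at least 11 exon blocks the correction gave 123 falls and 94 rises, the rises were 34, 38, 37 or 38 without KD2 replicate 1, KD2 replicate 4, lacZ replicate 1 or lacZ replicate 3, and 95 fell without lacZ replicate 3. The length of exons, mean CPM and span vary together across genes, and their separate parts were not tested.

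To ask whether both dsRNAs gave the same levels, KD2 was compared directly with KD1 in a fit of all 9 libraries. A single gene, Hrb87F, was past the threshold (0.0135% of the 7426 genes), and 12 genes (0.162%) had an adjusted p under 0.05, with 385 at an unadjusted p under 0.05. In this fit independent filtering on low counts left 1955 genes with an adjusted p, so for the other genes no difference was tested at this threshold. Past the threshold were 2 genes without KD1 replicate 3 or KD2 replicate 2 and 3 without KD1 replicate 4. On the scale of all 9 libraries Hrb87F had 1585, 1222 and 1501 normalised reads in KD2, against 2483, 2458 and 2754 in KD1. The groups did not overlap, and the log2 difference was -0.84 ± 0.08 (adjusted p = 3.71e-22). Hrb98DE differed by 0.14 ± 0.07 (adjusted p = 0.569), with 1115, 993 and 1123 in KD2 against 1014, 868 and 1051 in KD1. The other 11 genes differed by less than 1.3-fold, 10 of them higher in KD2. Among them Myc, a driver of growth and ribosome production, had 3349, 3503 and 3300 in KD2, against 2745, 2956 and 3013 in KD1 (0.22 ± 0.05, adjusted p = 0.0189). The translational repressor pum had 2676, 2627 and 2529 in KD2, against 2168, 2284 and 2330 in KD1 (0.21 ± 0.05, adjusted p = 0.0199). REG, the proteasome activator of the nucleus, had 5068, 4540 and 5289 in KD2, against 6036, 5773 and 6059 in KD1 (-0.26 ± 0.06, adjusted p = 0.00579). The same lacZ libraries serve as the control of both dsRNAs, so no overlap between the 2 comparisons with lacZ is given.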

How the data were processed

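The authors aligned paired-end reads to the fly genome (BDGP6) with STAR 2.5.1b and counted reads per gene with featureCounts (Subread 1.4.6-p2), per the labels and methods. The deposited files hold raw read counts, 1 file per library, not normalised or pooled. The strand setting of the counting is not given in the sources used here.

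The 6 libraries of KD2 and lacZ were fitted with DESeq2 1.42.0 (R 4.3.3), after genes with a mean of 1 CPM or less were removed. The 7426 genes left held at least 99.91% of the counts of each library. Normalised reads are counts divided by size factors of 0.912 to 1.08. Wald tests were adjusted by Benjamini-Hochberg over these genes, with independent filtering at an alpha of 0.1. KD2 and KD1 were compared in a fit of 9 libraries. The procedure was tested on simulated counts. Gene lists were described by counts and medians without a set test. Of the entries put into the lists, 42 were not matched to a gene identifier, among them trol, InR, Tor, vas and nos. The lists therefore do not hold every member of a family. Symbols and positions came from an Ensembl annotation of the same assembly, in which 162 genes tested had no entry.

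Groups and replicates follow the titles. The members and gene lists were chosen with earlier results of these data known. The genes named were Hrb98DE and Hrb87F, the 12 genes that rose and the 12 that fell most among genes past the threshold, above 5 CPM and without overlap, the 10 rises and 10 falls with the smallest adjusted p within 1.3-fold at 100 CPM or more, up to 5 members of each list by adjusted p and 2 by CPM, and genes past the threshold between KD2 and KD1. ps, mub, Marf1, the genes of the direct comparison other than Hrb87F and the ribosome assembly factors in the last section fall outside this rule and were chosen after their values were seen. Alternatives were TMM factors, edgeR 4.0.16, no filter, all 9 libraries, a fold-change prior, no independent filtering, a 1.5-fold threshold, a replicate block, an exon length correction and leaving out each library. Strata of genes were run under them after the data had been seen. Genome sequence was not used here.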

Additional observations from a re-analysis of the deposited data

Results flagged for a closer look

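Hrb87F differed between the dsRNAs against Hrb98DE. The direct test of KD2 against KD1 gave a log2 difference of -0.836 ± 0.0802 (SE, adjusted p = 3.71e-22 by DESeq2), lower in 3 of 3 KD2 libraries than in any KD1 library. The means were 1436 ± 190 normalised reads in KD2 and 2565 ± 164 in KD1 (SD, n = 3 each). By edgeR the difference was -0.837 (adjusted p = 0.000162), and over all alternatives run it lay between -0.914 and -0.733. The labels give no sequence for either dsRNA. The supplement of the study lists primers for the templates of both Hrb98DE dsRNAs, which were not used here. Why the transcript differed was not tested.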

How the results depend on the processing

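For KD2 against lacZ, the main analysis gave 574 genes past the threshold (199 that rose and 375 that fell) and 1449 with an adjusted p under 0.05 (676 and 773). Both counts stayed within 1.5 times under TMM factors (574 and 1452), the edgeR quasi-likelihood test (630 and 1728), no filter (566 and 1367), all 9 libraries (609 and 1758), the fold-change prior, no independent filtering and the exon length correction (571 and 1515, with 826 rises and 689 falls). The 1.5-fold threshold gave 299 genes, 83 that rose and 216 that fell. Leaving out each library in turn gave 411 to 668 genes past the threshold (142 to 249 that rose, 267 to 419 that fell) and 777 to 1534 with an adjusted p under 0.05 (332 to 761 that rose, 437 to 783 that fell). A fit blocked on the replicate number gave 58 genes under either rule (12 that rose and 46 that fell), and adding the exon length correction to the block gave 56 (14 and 42). Only replicates 1 and 2 are shared and 1 residual degree of freedom is left in that fit. Same-numbered libraries deviated from their group means with correlations of -0.4 and -0.498, so the numbers are not taken to pair the samples. Hrb98DE and Hrb87F kept their direction and their call under every alternative run. For KD2 against KD1, leaving out a library gave 1 to 3 genes past the threshold, and edgeR and the replicate block gave 1. Of 357 other named genes none reversed its call, 58 lost theirs without KD2 replicate 1, 67 without KD2 replicate 4 or lacZ replicate 3, 71 without lacZ replicate 1 and 208 under the block. Low counts limit the genes below 5 CPM, where the median standard error was 0.325 on the log2 scale.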

Other observations

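Factors of ribosome assembly that were in no list also rose. After their values were seen, ppan (log2 fold change 0.57 ± 0.10, adjusted p = 2.66e-07), RIOK1 (0.56 ± 0.12), Gar1 (0.47 ± 0.09), Noc1 (0.47 ± 0.10), Rrp5 (0.44 ± 0.09) and mod (0.41 ± 0.08), a nucleolin-like protein, were picked out, all past the threshold and without overlap between the groups. For mod the normalised reads were 12880, 10350 and 11733 in KD2, against 8083, 9837 and 8363 in lacZ. Of all genes tested, 18.9% had every KD2 library above every lacZ library. As these factors were chosen for their rise, they add no test.

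Genes of signalling lists changed in both directions. Of all genes tested 19.5% rose or fell. The share was 27.8% for Ras-MAPK and 14-3-3, 31.8% for insulin and TOR and 26.7% for the ecdysone response. It was 40.0% for the small RNA pathway and 25.0% for apoptosis. Of 18 Ras-MAPK and 14-3-3 genes 2 rose and 3 fell, and none rose without KD2 replicate 1, KD2 replicate 4, lacZ replicate 1 or lacZ replicate 3. The ligand Pvf2 had 1576, 1462 and 1597 normalised reads in KD2, against 2450, 2002 and 2371 in lacZ (-0.56 ± 0.08), and aos, a feedback inhibitor of the EGF receptor, fell by 0.69 ± 0.14 on the log2 scale. Of 22 insulin and TOR genes 4 rose, Myc among them at 0.27 ± 0.06, and 3 fell, with sima, the fly hypoxia-inducible factor, at -0.46 ± 0.07. Of 15 genes of the ecdysone response 1 rose (Eip74EF, 0.37 ± 0.08) and 3 fell, 1 of them past the threshold. The receptor EcR fell within 1.3-fold, at -0.36 ± 0.09. Without those 4 libraries in turn 1 or 2 of the insulin and TOR genes rose and 1 to 3 fell, and 1 ecdysone gene fell. In the small RNA pathway 4 of 15 genes rose, 2 without each of these libraries, and 2 fell, none without KD2 replicate 2, KD2 replicate 4, lacZ replicate 1 or lacZ replicate 2. Hen1, which methylates the ends of small RNAs, had 315, 287 and 290 normalised reads in KD2, against 172, 166 and 170 in lacZ (0.81 ± 0.13, adjusted p = 8.09e-09). Of 12 apoptosis genes the caspase Dcp-1 and p53 rose, by 0.56 ± 0.13 and 0.36 ± 0.11, and the inhibitor Diap2 fell by 0.33 ± 0.07, with 1 rise without KD2 replicate 1, KD2 replicate 4 or lacZ replicate 1. None of 16 tubulin and motor genes and none of 4 antimicrobial peptide genes above the filter passed the test in the 6 libraries by DESeq2 or edgeR, and 2 and 1 of them had an unadjusted p under 0.05 by DESeq2. In the DESeq2 fit of all 9 libraries 1 tubulin or motor gene rose and 1 fell, and 1 rose with the exon length correction or without lacZ replicate 2.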
